A study of Homo sapiens with 7 samples.

Results

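H3K4me1 intervals at protein-coding promoters were examined in SW1990 cells. Each interval is a region called by the authors as enriched in the ChIP library relative to input, and a promoter was the window of 1000 bases either side of a gene's 5′ end in GENCODE release 44 (build hg38). Intervals that overlapped such a window by at least 1 base were taken as members. They numbered 1330 of the 64843 H3K4me1 intervals in NC and 2512 of 92135 in KMT2D-KD. Of 20033 protein-coding genes, 2791 (13.9%) had a member interval in either list. Among them 412 had an interval in NC only, 1502 in KMT2D-KD only and 877 in both, which is 2.06%, 7.5% and 4.38% of all protein-coding genes. In all, 6.43% of genes had promoter H3K4me1 in NC and 11.9% in KMT2D-KD.

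SW1990 is an established human pancreatic cancer cell line. NC cells carried a negative control shRNA and KMT2D-KD cells an shRNA against KMT2D, and nothing else separated the groups in the labels. Each condition had 1 H3K4me1 library, called against an SW1990 input whose condition the labels do not give. There were no replicates, so NC and KMT2D-KD are compared as 2 libraries, the intervals given with each value cover counting error only, and no test was possible. KMT2D RNA or protein was not measured in these files, so the knockdown itself was not checked here.

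H3K4me1 is monomethylation of lysine 4 of histone H3. It is best known as a mark of enhancers, where KMT2C and KMT2D deposit it. At active promoters the nucleosomes next to the start site usually carry trimethylated lysine 4 instead, and monomethylation is found on the flanks. KMT2D acts in a complex with KDM6A, WDR5, RBBP5, ASH2L and DPY30.

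To show what lay beneath these intervals, the summit (the position of highest enrichment) and the 100 bases either side of it are printed for the strongest places of each class whose sequence overlapped no annotated exon. All are on hg38, 5′ to 3′ on the strand of the gene, with CpG dinucleotides in capitals. From NC only genes, the summit shared by MRPL36 and NDUFS6 was at chr5:1802491-1802691 (minus strand, the strand of MRPL36), in an intron of a protein-coding gene. That of CD59 was at chr11:33737590-33737790 (minus strand), between annotated genes. From KMT2D-KD only genes, STOM was represented by chr9:121372374-121372574 (minus strand), within another annotated gene, and RAB31 by chr18:9706426-9706626 (plus strand), which was intergenic. From genes in both lists, the NC summits of PLAU at chr10:73907723-73907923 and of MYPN at chr10:68085881-68086081 (both plus strand) were intergenic.
MRPL36 and NDUFS6: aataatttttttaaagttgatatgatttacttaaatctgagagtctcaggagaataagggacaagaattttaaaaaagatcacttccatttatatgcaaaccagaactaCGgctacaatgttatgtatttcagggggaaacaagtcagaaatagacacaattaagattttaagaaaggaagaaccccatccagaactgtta
CD59: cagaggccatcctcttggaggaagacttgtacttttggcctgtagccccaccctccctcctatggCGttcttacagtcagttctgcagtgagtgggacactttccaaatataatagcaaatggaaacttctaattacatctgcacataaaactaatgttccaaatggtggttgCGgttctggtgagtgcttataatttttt
STOM: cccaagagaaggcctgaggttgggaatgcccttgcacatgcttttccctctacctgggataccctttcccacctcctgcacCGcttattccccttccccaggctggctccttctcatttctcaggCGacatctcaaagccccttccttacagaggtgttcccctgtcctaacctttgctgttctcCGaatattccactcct
RAB31: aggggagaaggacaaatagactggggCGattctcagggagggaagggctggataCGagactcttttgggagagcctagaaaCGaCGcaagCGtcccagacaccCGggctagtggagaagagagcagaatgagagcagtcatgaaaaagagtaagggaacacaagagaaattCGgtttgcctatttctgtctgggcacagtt
PLAU: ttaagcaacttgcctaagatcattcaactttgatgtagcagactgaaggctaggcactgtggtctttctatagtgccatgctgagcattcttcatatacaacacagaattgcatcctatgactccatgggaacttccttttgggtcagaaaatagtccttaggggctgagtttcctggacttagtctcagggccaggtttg
MYPN: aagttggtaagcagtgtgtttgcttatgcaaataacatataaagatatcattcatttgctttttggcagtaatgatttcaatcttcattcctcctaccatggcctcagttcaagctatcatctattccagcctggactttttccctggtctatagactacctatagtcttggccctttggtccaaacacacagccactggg

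CpG dinucleotides were few in the 6 sequences. Their number was 1 at MRPL36 and NDUFS6, 2 at CD59, 3 at STOM and 7 at RAB31, and PLAU and MYPN had 0. Their GC content ran from 31.3% at MRPL36 and NDUFS6 and 40.8% at MYPN to 51.2% at RAB31 and 54.2% at STOM. All 6 summits lay upstream of MRPL36, CD59, STOM, RAB31, PLAU or MYPN, from -2170 to -1211 bases relative to the 5′ end, so these intervals entered the window with their edge.

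The same stretch around each summit was searched for short sequences on both strands. TGANTCA, the recognition sequence of AP-1 factors (N is any base), occurred at 6.92% of NC and 6.73% of KMT2D-KD promoter summits, against 8.14% and 7.86% of summits elsewhere and 3.9% of all protein-coding 5′ ends. GGGCGG, the GC box bound by SP factors, was in 3.38% of NC and 3.26% of KMT2D-KD promoter summits but in 47% of stretches of the same length centred on all protein-coding 5′ ends. CCAAT was in 23.6% and 23.7% of these summits and in 26% of all 5′ ends. TATAAA was in 12.2% and 8.88% of summits and in 7.09% of 5′ ends. CCCNNGGG, the core of the palindrome bound by EBF factors, was in 3.91% of NC and 5.37% of KMT2D-KD promoter summits and in 14.4% of 5′ ends. The median GC content was 45.8% at NC promoter summits, 47.8% at KMT2D-KD promoter summits and 63.2% at all 5′ ends, and these short sequences differ in GC content themselves.

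Depth was close in the libraries by an indirect estimate. The lowest background recovered from the deposited fold enrichments and p-values was 1.85 in NC and 1.64 in KMT2D-KD. Divided by the narrowest interval, 187 and 176 bases, it gave 9.89 and 9.29 fragments per 1000 bases, a ratio of 0.94. This takes the narrowest interval as the fragment length, which was not tested. Recovered values were whole (tolerance 0.001 in −log10 p) in all but 4 NC and 7 KMT2D-KD intervals. Member intervals were as narrow as intervals elsewhere. Their median width was 348.5 bases in NC and 364.5 in KMT2D-KD, against 369 and 375 for all others. In NC 1225 of them touched the window of a single gene and in KMT2D-KD 2304, whereas 105 NC and 208 KMT2D-KD intervals touched the windows of 2 or more genes and were counted for each. A second interval in the same window was found for 145 of 1289 NC genes and 306 of 2379 KMT2D-KD genes.

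Where H3K4me1 lay relative to the 5′ end was compared in both conditions. The 5′ end itself was seldom inside an interval. This was so for 120 of 1289 marked genes in NC (9.31%, 7.78% to 11.0%) and for 191 of 2379 in KMT2D-KD (8.03%, 6.97% to 9.19%). Upstream intervals were the most common arrangement. In NC 52.7% of marked genes had intervals upstream only and 31.3% downstream only, and in KMT2D-KD these shares were 54.3% and 29.9%. Summits were downstream in 39.2% (36.7% to 41.8%) of gene-interval pairs in NC and in 38.6% (36.8% to 40.5%) in KMT2D-KD, so the balance of the sides differed by less than the counting error. The median upstream summit was at -786 bases in both lists, and the median downstream summit at 883 bases (NC) or 932.5 bases (KMT2D-KD). Summits close to the 5′ end were uncommon, since 10.1% of NC pairs and 8.42% of KMT2D-KD pairs had the summit within 250 bases of it. By the nearest edge of an interval, 510 NC genes and 1004 KMT2D-KD genes were marked within 500 bases of the 5′ end, and 779 and 1375 between 500 and 1000 bases. Just outside the window, between 1000 and 1500 bases, the nearest interval was found for a further 1138 genes in NC and 1860 in KMT2D-KD.

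**Figure D1:**
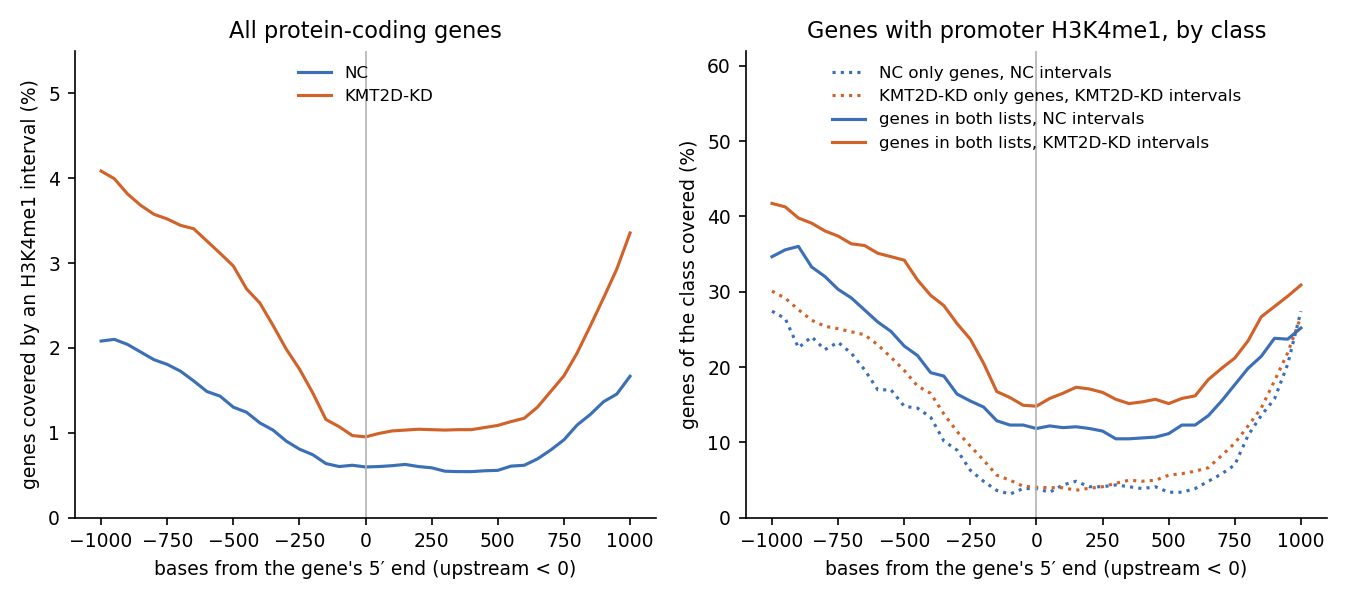
Share of genes covered by an H3K4me1 interval at each position (x axis, bases from the 5′ end, upstream negative; y axis, percent of genes), for all protein-coding genes (left) and for the genes of each class with the list that marked them (right). At the 5′ end 0.599% of all genes were covered in NC and 0.953% in KMT2D-KD, against 2.08% and 4.08% at 1000 bases upstream. The 5′ end was covered at 11.9% and 14.8% of genes in both lists against 3.88% and 4.06% of genes in a single list. At 1000 bases upstream these shares were 34.7% and 41.7% against 27.4% and 30.1%.

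The dip at the 5′ end was read from the coverage at each position. Over all protein-coding genes, 0.599% of 5′ ends were covered in NC and 0.953% in KMT2D-KD. At 1000 bases upstream the shares were 2.08% and 4.08%, and at 1000 bases downstream 1.67% and 3.35%. Genes in both lists had the 5′ end inside an interval more often than genes in a single list. The shares were 11.9% (9.8% to 14.2%) of these genes by NC intervals and 14.8% (12.5% to 17.3%) by KMT2D-KD intervals. For NC only genes the share was 3.88% (2.24% to 6.23%), and for KMT2D-KD only genes 4.06% (3.12% to 5.19%). The best intervals of genes in both lists were also wider, with medians of 383 against 303.5 bases in NC and 546 against 325.5 bases in KMT2D-KD. At 1000 bases upstream their coverage was higher too, 34.7% against 27.4% in NC and 41.7% against 30.1% in KMT2D-KD. The contrast was therefore not particular to the 5′ end. Over all marked genes, the share with the 5′ end inside an interval depended on the definition of the start. It was 4.46% in NC and 4.96% in KMT2D-KD with the 5′ end of the Ensembl canonical transcript, in place of 9.31% and 8.03% with that of the gene record.

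Genes without a close neighbour gave a like picture. Where no other protein-coding 5′ end lay within 3000 bases, the summit was downstream in 37.8% of NC pairs and 37.5% of KMT2D-KD pairs. Where another 5′ end lay that close, the shares were 43.0% and 41.8%. Summits of promoter intervals fell in an exon of a protein-coding gene in 14.4% (NC) and 13.8% (KMT2D-KD) of cases, against 3.62% and 3.77% of summits elsewhere. Members were chosen for lying near a protein-coding 5′ end, where an exon begins, so the choice itself favours exons. Introns held 41.8% and 40.2% of promoter summits, and 33.5% and 34.7% were intergenic.

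The GC content of the window was not used to choose the members. All windows were ordered by GC content and divided into 5 groups of about equal size (quintiles). Promoter H3K4me1 was most frequent in the middle of the range. In NC it was found at 6.73% (5.97% to 7.55%) of genes in the GC-poorest quintile, 8.68% (7.83% to 9.59%) in the middle quintile and 3.02% (2.51% to 3.6%) in the GC-richest quintile. In KMT2D-KD the same shares were 9.24% (8.36% to 10.2%), 15.6% (14.5% to 16.7%) and 6.69% (5.93% to 7.51%). More genes were marked in KMT2D-KD in each quintile, and the ratio was larger where GC content was higher. The log2(KMT2D-KD / NC) of the number of marked genes was 0.46 (0.23 to 0.69) in the poorest quintile, 0.86 (0.66 to 1.07) and 0.84 (0.65 to 1.04) in the next 2, 1.21 (0.99 to 1.44) in the fourth and 1.15 (0.83 to 1.47) in the richest. When the KMT2D-KD list was cut to the length of the NC list by −log10 q, the log2 ratio was -0.07 (-0.32 to 0.18) in the poorest quintile and 0.61 (0.27 to 0.95) in the richest.

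**Figure D2:**
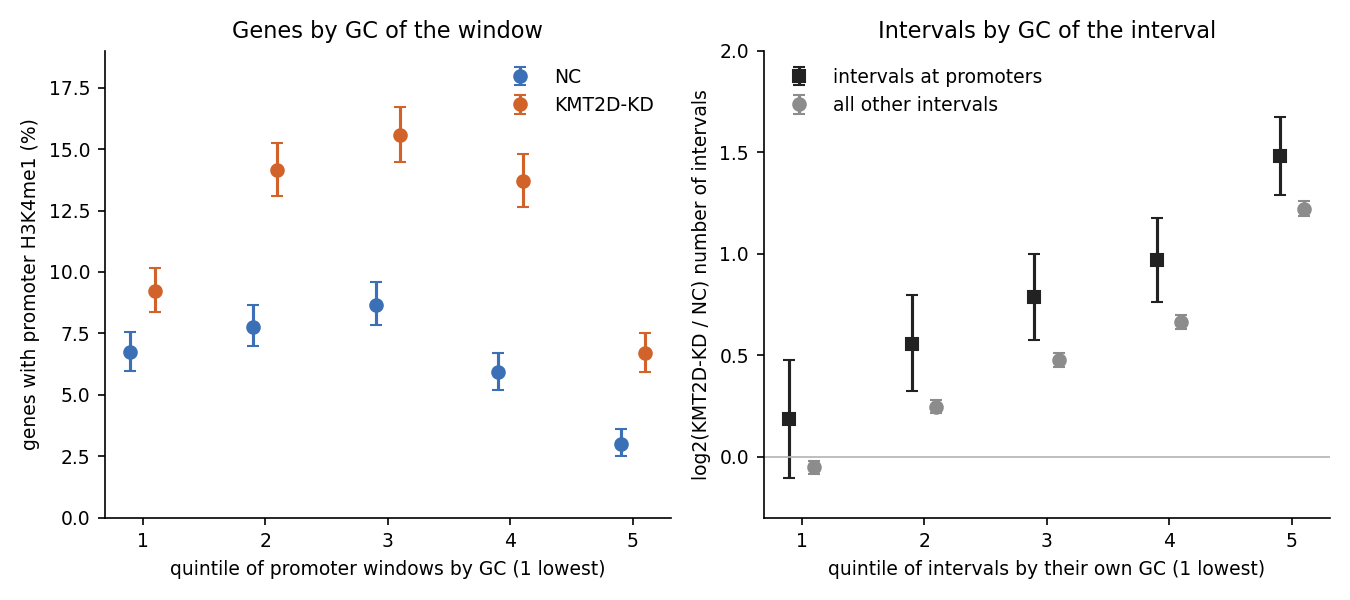
Left, percent of genes with promoter H3K4me1 in each quintile of windows ordered by GC content, with exact binomial 95% intervals; right, log2(KMT2D-KD / NC) of the number of intervals at promoters and elsewhere in each quintile of intervals ordered by their own GC content, with 95% intervals derived from the exact binomial one. The marked share was highest in the middle quintile in both conditions (8.68% and 15.6%), and the ratio was larger with GC content at promoters (0.19 to 1.48) and elsewhere (-0.05 to 1.22).

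The relation with GC content was not particular to promoters. Grouped by the GC content of the interval itself, the log2 ratio of the number of promoter intervals was 0.19 (-0.10 to 0.48) in the poorest quintile and 1.48 (1.29 to 1.68) in the richest. Away from promoters the ratios in these quintiles were -0.05 (-0.08 to -0.02) and 1.22 (1.19 to 1.26). In the 3 quintiles between, promoter intervals had ratios of 0.56, 0.79 and 0.97, and the other intervals 0.25, 0.48 and 0.67. Promoters thus had the higher ratio in each quintile, with counting intervals that overlapped in the poorest quintile and in no other. Over all intervals the ratio was 0.92 (0.82 to 1.01) at promoters and 0.50 (0.48 to 0.51) elsewhere. Whether the libraries differed in GC content as a whole, and the part of this in these values, was not tested.

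The shape of the profile differed with GC content. In the GC-poorest quintile the coverage was almost level, with 1.86% of 5′ ends covered in NC and 2.51% in KMT2D-KD. In the middle quintile the 5′ end was covered at 0.199% of genes in NC and 0.448% in KMT2D-KD, while 2.86% and 5.52% were covered at the upstream maximum. In the GC-richest quintile no 5′ end of 3977 was inside an NC interval and 1 was inside a KMT2D-KD interval. The side of the start differed as well. Summits were downstream in 48.4% (43.0% to 53.8%) of NC pairs in the poorest quintile and in 25% (17.5% to 33.7%) in the richest. In KMT2D-KD these shares were 49.8% (45.2% to 54.3%) and 24.6% (19.7% to 30.2%).

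**Figure D3:**
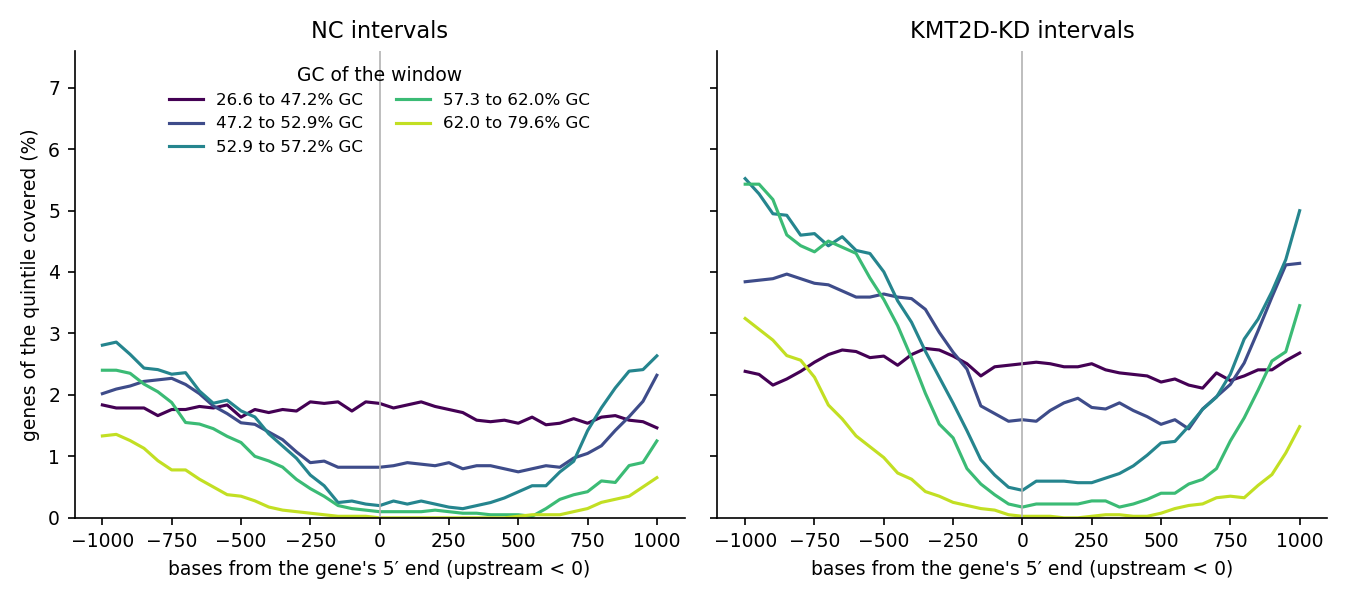
Percent of the genes of each GC quintile covered by an H3K4me1 interval (y axis) by distance from the 5′ end in bases (x axis, upstream negative), for NC (left) and KMT2D-KD (right). The GC-poorest quintile is nearly level (1.86% and 2.51% at the 5′ end) and the other quintiles dip at the 5′ end, down to 0% in NC and 0.0251% in KMT2D-KD in the GC-richest quintile.

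Among the classes, the GC-richer windows were those of genes marked in KMT2D-KD only. The median was 55.3% (54.9% to 55.8%) for KMT2D-KD only, 53.8% (53.3% to 54.6%) for NC only and 53.6% (52.9% to 54.1%) for both, with 55.2% at the genes in neither list. The medians of the single-list classes differed by more than the counting error, but the middle ranges overlapped widely, 50.9% to 59.6% for KMT2D-KD only and 49.2% to 58.3% for NC only. Genes in both lists had the lower CpG content. The median ratio of observed to expected CpG dinucleotides was 0.493 (0.465 to 0.523) in both, against 0.634 in NC only, 0.621 in KMT2D-KD only and 0.618 in neither. Windows with a GC content of at least 50% and a CpG ratio of at least 0.6, the usual limits of a CpG island, made up 30.4% (27.4% to 33.6%) of genes in both lists. They made up 52.9% (48.0% to 57.8%) of NC only, 49.2% (46.6% to 51.8%) of KMT2D-KD only and 47.7% of unmarked genes.

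Interval strength differed by class. The median −log10 q of a gene's best interval was 2.85 in NC only genes and 4.01 in the NC intervals of genes in both lists. In KMT2D-KD it was 3.49 for KMT2D-KD only genes and 4.97 for genes in both. Many single-list intervals rested on few fragments. At most 10 fragments at the summit supported 142 of 412 NC only genes (34.5%) and 650 of 1502 KMT2D-KD only genes (43.3%), against 15.3% and 19.8% of genes in both lists. A −log10 q of at least 5 was reached by 34 NC only genes and 291 KMT2D-KD only genes. The largest value was 9.61 in NC only and 24.0 in KMT2D-KD only genes.

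Genes of a single list often had the other list close by. A KMT2D-KD interval lay within 5000 bases of the 5′ end at 67.5% (62.7% to 72.0%) of NC only genes, against 42.9% of all protein-coding genes, and the median distance was 1939.5 bases. For KMT2D-KD only genes, an NC interval lay within 5000 bases at 53.1% (50.5% to 55.6%), against 30.2% of all genes, with a median distance of 4167 bases. Some best intervals even overlapped an interval of the other list that ended outside the window, at 75 of 412 NC only genes (18.2%) and 168 of 1502 KMT2D-KD only genes (11.2%). This was more common among strong intervals. With a −log10 q of at least 5 the shares were 14 of 34 (41.2%, 24.6% to 59.3%) and 87 of 291 (29.9%, 24.7% to 35.5%), and below that value 16.1% and 6.69%. The strong intervals were also wider, with a median of 542 bases in either class against 290.5 (NC only) and 299 (KMT2D-KD only). A wider interval can reach more neighbours, and the part of width in these shares was not tested.

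The nearness of the other list was also seen at the strongest NC only genes. At the 10 strongest places, which held 12 genes, 11 genes had a KMT2D-KD interval between 1057 and 2365 bases from the 5′ end, and at 8 genes it overlapped the NC interval. ESR2, which encodes estrogen receptor beta, was the exception in distance. Its NC interval had a fold enrichment over input of 7.02 with 19 fragments and a −log10 q of 9.61, and the nearest KMT2D-KD interval was 52799 bases away. MRPL36, a protein of the large mitochondrial ribosomal subunit, and NDUFS6, a subunit of respiratory complex I, are divergent neighbours with a common NC interval of 4.73-fold (30 fragments). The KMT2D-KD interval there ended 1114 and 1073 bases from their 5′ ends. CD59, an inhibitor of the complement attack complex, had an NC interval of 5.38-fold at 724 bases from the 5′ end and a KMT2D-KD interval at 1251 bases. VTI1A, a SNARE of the Golgi, had 6.4-fold in NC and a KMT2D-KD interval at 1181 bases. PAAF1, RAB7B, RTF2 and ENSG00000251012 were of the same kind, with KMT2D-KD intervals at 1057, 1218, 1123 and 1098 bases. GSTZ1, GPR108 and TRIP10 had KMT2D-KD intervals at 1080, 2020 and 2365 bases that did not overlap the NC interval.

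Among the strongest KMT2D-KD only genes, 9 of 10 had an NC interval within 1838 bases of the 5′ end, and at 8 of them it overlapped the KMT2D-KD interval. STOM, which encodes the membrane protein stomatin, had a KMT2D-KD interval of 10.6-fold (35 fragments, −log10 q 24.0) that came to 979 bases of the 5′ end, while the NC interval stopped at 1284 bases. RAB31, a GTPase of vesicle traffic, had 11.0-fold (28 fragments) with the summit at -1749 bases. A second, weaker KMT2D-KD interval of RAB31 came to 609 bases of the 5′ end, and the NC interval to 1317 bases. TSPAN15, a tetraspanin, had the widest of these intervals, 5783 bases, at 9.05-fold. SERINC3, HMG20B, PDZK1 and LARP4 had fold enrichments of 8.21, 8.44, 8.56 and 7.84, and NC intervals at 1710, 1513, 1151 and 1119 bases. SV2B, a synaptic vesicle protein, had 8.15-fold with the summit at 904 bases, and a second, weaker KMT2D-KD interval came to 173 bases. The NC interval at 1838 bases did not overlap the 8.15-fold interval. COL6A1 was the other exception and is described with the KMT2D and EBF2 lists.

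Genes in both lists were mostly marked at the same place. The NC and KMT2D-KD intervals overlapped at 800 of 877 genes (91.2%, 89.1% to 93.0%), and the best summits lay on the same side of the 5′ end at 83.7%. The best intervals themselves, whose values are compared here, overlapped at 715 genes (81.5%, 78.8% to 84.0%). Fold enrichment was higher in KMT2D-KD at 584 of 877 genes (66.6%, 63.4% to 69.7%). Among genes whose best intervals overlapped it was higher at 483 of 715 (67.6%, 64.0% to 71.0%). The same comparison at 46914 overlapping pairs of intervals away from promoters gave 66.5%, which differed from the share at promoters by less than the counting error. The median log2 ratio of fold enrichment, KMT2D-KD over NC, was 0.17 (0.13 to 0.22) at these genes and 0.19 elsewhere.

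**Figure D4:**
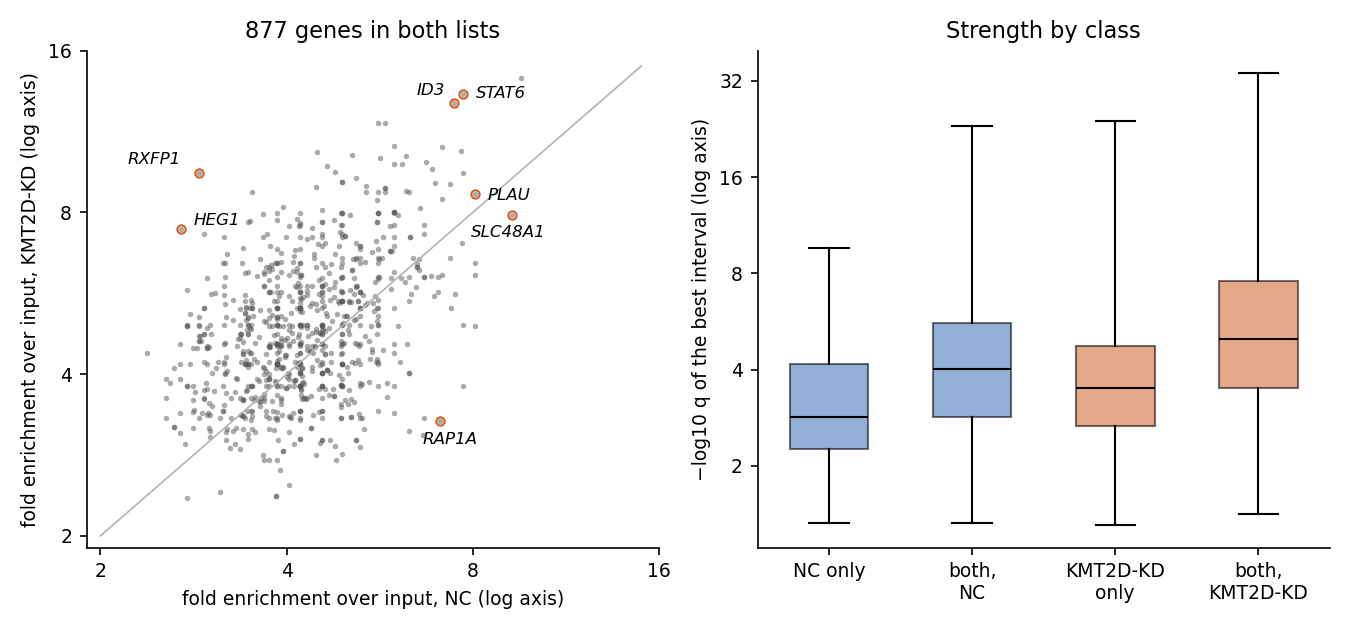
Left, fold enrichment over input of the best interval in NC (x axis) and KMT2D-KD (y axis) for the 877 genes in both lists, on log axes, with the line of equal values and a few named genes circled; right, −log10 q of the best interval by class (log axis; box, quartiles and median; whiskers, lowest and highest). Points lie above the line at 584 genes, and single-list genes have the lower medians (2.85 and 3.49 against 4.01 and 4.97).

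The strongest genes of this class had values far above the authors' threshold in both libraries. ENSG00000284969, a gene without a symbol, had 9.58-fold in NC and 14.3-fold in KMT2D-KD, with its 5′ end inside both intervals. SLC48A1, a heme transporter, was the exception among the 10 strongest places, with the higher value in NC, 9.27-fold (39 fragments) against 7.93-fold (30 fragments). PLAU, the urokinase plasminogen activator, differed little, 8.07-fold in NC and 8.67-fold in KMT2D-KD. STAT6, the transcription factor of interleukin-4 signalling, had 7.71-fold (21 fragments) and 13.3-fold (34 fragments). ID3, an inhibitor of basic helix-loop-helix factors, had 7.47-fold and 12.8-fold. MYG1, TM4SF4, TAS2R1, SPATA9 and MYPN had 4.88-fold to 7.72-fold in NC and 7.34-fold to 10.4-fold in KMT2D-KD.

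Among genes in both lists, the highest ratios of KMT2D-KD over NC were at RXFP1, HEG1, RXFP4, ABCB8 and SLC4A8. RXFP1, the relaxin receptor, had 2.88-fold on 9 fragments in NC and 9.49-fold on 24 fragments in KMT2D-KD, from intervals that did not overlap, so the ratio sets different places side by side. At HEG1, RXFP4, ABCB8 and SLC4A8 the intervals overlapped. The SLC4A8 summits were nonetheless at -929 (NC) and -2355 bases (KMT2D-KD), so that ratio also sets different places side by side. HEG1, a receptor of endothelial junctions, had 2.7-fold on 20 fragments and 7.44-fold on 28 fragments. The recovered backgrounds at HEG1 were 6.79 in NC and 2.9 in KMT2D-KD, so the background differed more than the fragments. At the other end were PTP4A2, RAP1A, LSM4, VIPR1 and MAPK13. RAP1A, a RAS-like GTPase, had 7.07-fold on 29 fragments in NC and 3.27-fold on 12 fragments in KMT2D-KD. PTP4A2, a tyrosine phosphatase, had 6.66-fold and 3.08-fold, on 18 and 11 fragments over backgrounds of 1.85 and 2.9. At LSM4, a subunit of the U6 snRNA-binding ring, the values of 7.71-fold and 3.79-fold came from opposite sides of the 5′ end.

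Functions were described with gene lists, each read against the 6.43% of all protein-coding genes marked in NC and the 11.9% marked in KMT2D-KD. S100 genes, which encode small calcium-binding proteins, had the highest share of any list of 20 or more genes. Of 20 members, 8 were marked and all 8 were in both lists (40.0%, 19.1% to 63.9%). They are neighbours in a cluster on chromosome 1, so the 8 genes are not independent. S100A2 had 6.73-fold in NC and 9.95-fold in KMT2D-KD. The best intervals of S100A2 overlapped, whereas those of S100A11, S100A3 and S100A5 lay at different places in the lists, so their values are not read as a change at one place. S100A11 had 6.56-fold and 8.15-fold, S100A3 had 4.77-fold and 7.74-fold, and S100A5 had 7.14-fold and 6.11-fold. Their intervals were strong, since 7 of these genes in NC and 8 in KMT2D-KD were still marked at a −log10 q of at least 5.

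**Figure D5:**
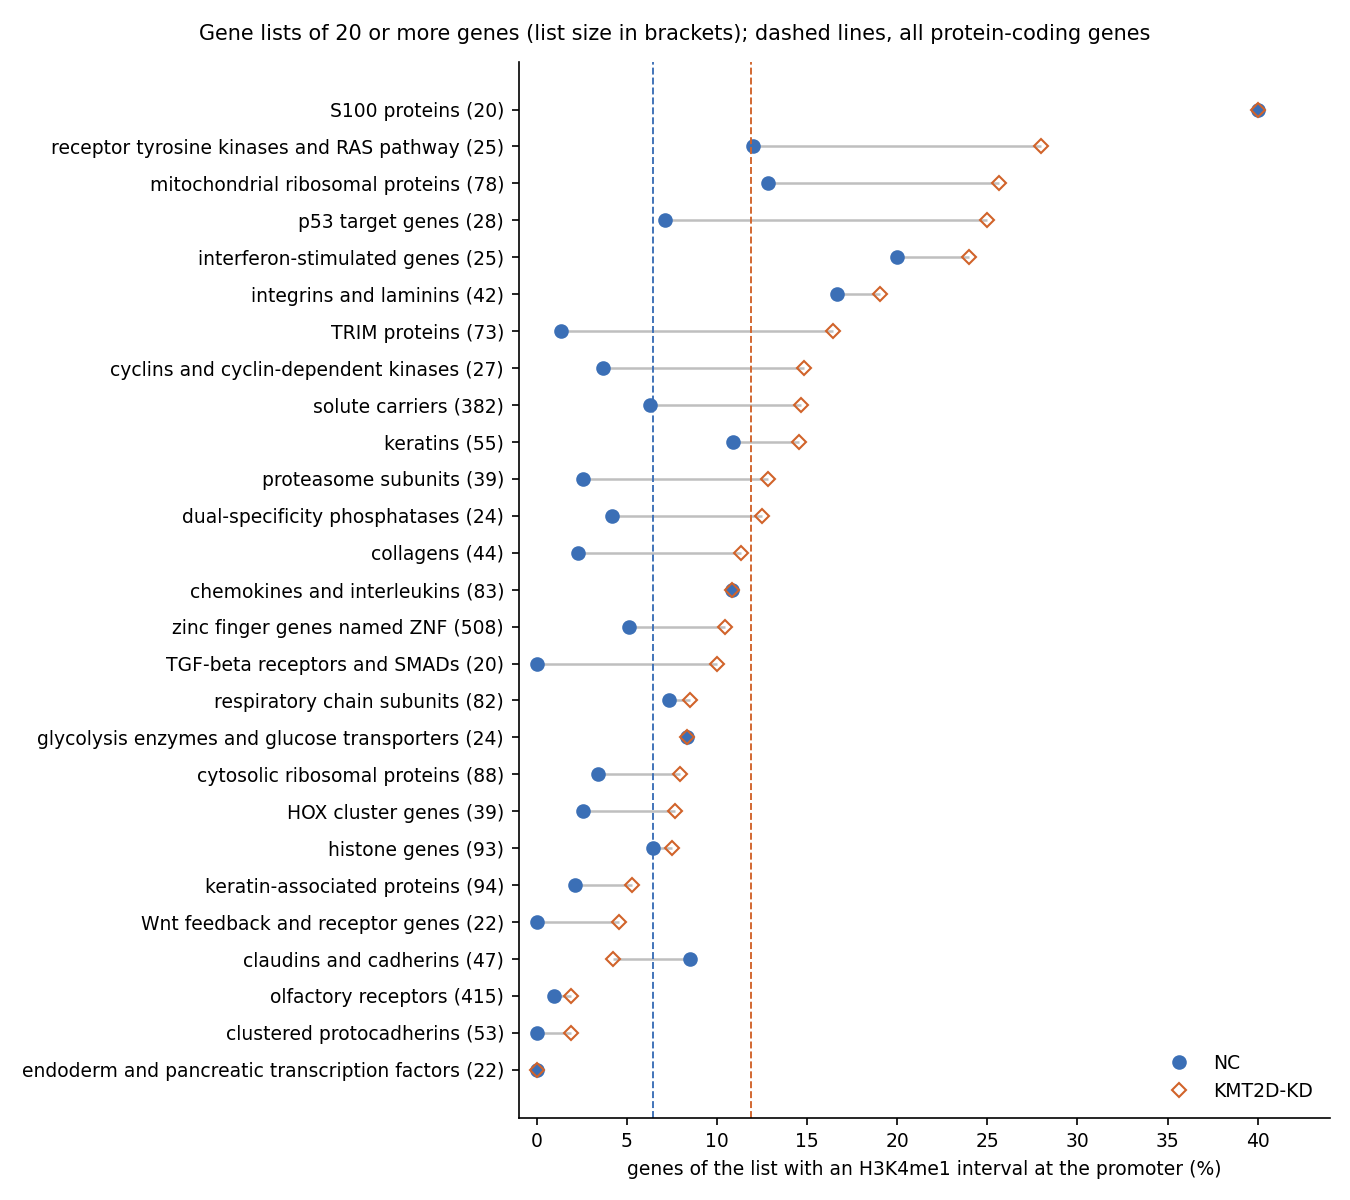
Percent of the genes of each list with an H3K4me1 interval at the promoter in NC (filled circles) and KMT2D-KD (open diamonds), for lists of 20 or more genes (1 list not shown), with list size in brackets and dashed lines at the shares of all protein-coding genes (6.43% and 11.9%). S100 proteins lie at 40.0% in both. TRIM proteins lie at 1.37% and 16.4%, with counting intervals that hold the shares of all genes. Endoderm and pancreatic transcription factors are at 0% in both (0 of 22, upper limit 15.4%).

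Structural and adhesion genes were counted as keratins, integrins, laminins and junction proteins. Of 55 keratins, the 6 marked in NC (10.9%, 4.11% to 22.2%) were all among the 8 marked in KMT2D-KD (14.5%, 6.5% to 26.7%). Both intervals hold the shares of all genes. KRT80 had 5.38-fold and 8.96-fold. KRT15, a keratin of basal cells, had 6.95-fold and 9.06-fold, and so these keratins had the higher value in KMT2D-KD, as did KRT5 with 5.5-fold and 6.74-fold. KRT7, a keratin of simple and ductal epithelium, was marked in KMT2D-KD only, at 6.48-fold on 28 fragments, and the nearest NC interval was 1560 bases from its 5′ end. Integrins and laminins were marked at 7 of 42 genes in NC (16.7%) and 8 in KMT2D-KD (19%). ITGBL1, an integrin beta-like protein, had the higher value in NC, 6.36-fold against 5.65-fold. LAMB3, which encodes a laminin of the epithelial basement membrane, had 4.52-fold and 5.98-fold. ITGB1, the common beta subunit of many integrins, had 3.46-fold and 4.76-fold. At ITGA7 the values of 4.65-fold and 4.07-fold came from intervals that did not overlap. Claudins and cadherins, which form cell junctions, numbered 4 of 47 in NC and 2 in KMT2D-KD, from 3 intervals in each list. This order depended on the setting, with 0 and 2 genes when the −log10 q had to reach 5, and 2 and 2 with the canonical transcript's 5′ end. CLDN1 and CLDN16 were NC only through the same interval of 3.32-fold on 9 fragments. CLDN7 (3.46-fold and 6.21-fold) and CDH3 (3.67-fold and 5.01-fold) were in both.

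Signalling and stress genes were counted next, in lists of 17 to 83 genes. Receptor tyrosine kinases and RAS pathway genes numbered 3 of 25 in NC (12.0%, 2.55% to 31.2%) and 7 in KMT2D-KD (28.0%, 12.1% to 49.4%). The lower limit in KMT2D-KD was close to the 11.9% of all genes. ERBB2, the HER2 receptor, was KMT2D-KD only at 5.13-fold, with an NC interval 1014 bases from the 5′ end. MAPK3, the kinase ERK1, was KMT2D-KD only at 7.21-fold, and the nearest NC interval was 7333 bases away. NRAS was KMT2D-KD only at 5.31-fold with an NC interval at 1276 bases, so the other list lay close at ERBB2 and NRAS and not at MAPK3. EPHA2, an ephrin receptor, was in both lists with 4.49-fold and 4.63-fold. Targets of p53 numbered 2 of 28 (7.14%, 0.877% to 23.5%) and 7 of 28 (25%, 10.7% to 44.9%), and both intervals hold the share of all genes. CDKN1A, the cell cycle inhibitor p21, was KMT2D-KD only with 4.77-fold on 15 fragments, 36 bases from the 5′ end, and an NC interval at 1084 bases. DDB2, a DNA damage sensor, was in both, with 3.55-fold and 4.58-fold. YAP-TEAD genes and targets numbered 3 of 17 and 6 of 17, with AMOTL2 (6.55-fold and 6.25-fold) and ANKRD1 (3.86-fold and 6.83-fold) in both. Interferon-stimulated genes were marked in either condition, 5 of 25 in NC and 6 in KMT2D-KD. OAS1 (5.76-fold and 8.74-fold) and IFIT3 (4.32-fold and 5.63-fold) had the 5′ end inside the intervals of both lists, and IFIT2 (4.56-fold and 4.44-fold) had intervals that did not overlap. Among chemokines and interleukins, 9 of 83 were marked in each list (10.8%). CCL2 had 6.25-fold and 10.2-fold, IL24 had 4.56-fold and 8.09-fold, and IL6 had 4.06-fold and 5.2-fold. IL7R had the higher value in NC, 5.03-fold against 3.52-fold.

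TRIM genes, a family of mostly RING-type ubiquitin ligases, had 1 of 73 marked in NC (1.37%, 0.0347% to 7.4%) and 12 in KMT2D-KD (16.4%, 8.79% to 27.0%). Both intervals hold the shares of all genes. With a −log10 q of at least 5, 0 and 3 TRIM genes were marked, beside 1.5% and 3.6% of all genes. TRIM44 was in both (3.36-fold and 4.68-fold), and TRIM54, TRIM6 and TRIM14 were KMT2D-KD only, at 6.07-fold, 4.6-fold and 4.93-fold. Cut to the length of the NC list, the KMT2D-KD list marked 8 TRIM genes and 8.36% of all genes. Genes of the mitochondrial ribosome numbered 10 of 78 in NC (12.8%, 6.32% to 22.3%) and 20 in KMT2D-KD (25.6%, 16.4% to 36.8%). MRPS24 had 6.32-fold and 8.73-fold, with summits at -752 (NC) and -2466 bases (KMT2D-KD), so these values come from different places. MRPS16 was KMT2D-KD only at 6.94-fold. With the shortened KMT2D-KD list the number of marked mitochondrial ribosomal genes was 11 in place of 20. Where the summit had to lie inside the window, 8 genes were marked in each list, while 4.58% of all genes were marked in NC and 8.23% in KMT2D-KD. Cytosolic ribosomal proteins numbered 3 of 88 in NC (3.41%, 0.709% to 9.64%) and 7 in KMT2D-KD (7.95%, 3.26% to 15.7%), intervals that hold the shares of all genes, and no gene was in both. RPL15, RPS16 and RPL27 were KMT2D-KD only at 4.55-fold to 4.93-fold. Proteasome subunits numbered 1 and 5 of 39, with PSMC3 in both (4.68-fold and 6.16-fold), and respiratory chain subunits 6 and 7 of 82.

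Large families were counted in the same way. Solute carriers were marked at 24 of 382 genes in NC (6.28%, 4.07% to 9.2%) and 56 in KMT2D-KD (14.7%, 11.3% to 18.6%), and both intervals hold the shares of all genes. Of the 382 genes, 33 were KMT2D-KD only and 1 NC only, while 7.5% and 2.06% of all protein-coding genes were in these classes. SLC25A20, the mitochondrial carnitine carrier, was KMT2D-KD only at 7.84-fold and the nearest NC interval was 27315 bases away. Genes named ZNF were marked at 26 of 508 (5.12%) and 53 of 508 (10.4%), with ZNF219 (3.86-fold and 7.74-fold) and ZNF217 (4.56-fold and 6.93-fold) in both. The ZNF219 summits were at -106 (NC) and -1956 bases (KMT2D-KD), so its values come from different places. Olfactory receptors, whose windows had a median GC content of 39.2%, were marked at 4 of 415 genes in NC (0.964%, 0.263% to 2.45%) and 8 in KMT2D-KD (1.93%, 0.836% to 3.76%). Keratin-associated proteins numbered 2 and 5 of 94, clustered protocadherins 0 and 1 of 53, histone genes 6 and 7 of 93 and HOX genes 1 and 3 of 39. Collagens numbered 1 and 5 of 44. With the shortened KMT2D-KD list 4 olfactory receptors, 2 collagens and 3 proteasome genes were marked, in place of 8, 5 and 5.

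Lists of regulators of cell identity and of the mark itself were short, and their shares are imprecise. Among 18 epithelial transcription factors, ELF3 (4.91-fold and 9.11-fold), ETV4 (5.06-fold and 5.73-fold) and KLF5 (5.96-fold and 4.38-fold) were in both lists (16.7%, 3.58% to 41.4%), and at ETV4 the intervals did not overlap and lay on opposite sides of the 5′ end. None of 22 endoderm and pancreatic transcription factors had a promoter interval in either list, which allows a share of up to 15.4% and does not set them apart from all genes. Of 14 AP-1 factors, ATF3 was in both, BATF and FOSL1 were NC only and FOSB was KMT2D-KD only. Among 12 genes of epithelial-mesenchymal transition, SNAI2 was in both (3.86-fold and 6.07-fold), and VIM and PRRX1 were KMT2D-KD only at 4.55-fold and 4.51-fold on 11 fragments each. Of 18 H3K4 methyltransferases and partners, KMT2D was NC only and DPY30 KMT2D-KD only (3.97-fold on 10 fragments). The KMT2D interval had 3.3-fold on 10 fragments and a −log10 q of 2.22, which is near the weak end of the list. It came to 588 bases of the 5′ end, and the nearest KMT2D-KD interval lay 2296 bases from that 5′ end. No member of the EBF family (4 genes) or of the H3K4 demethylases (6 genes) was marked. Dual-specificity phosphatases numbered 1 and 3 of 24, cyclins and their kinases 1 and 4 of 27, glycolysis genes 2 and 2 of 24, TGF-beta receptors and SMADs 0 and 2 of 20, Wnt feedback genes 0 and 1 of 22, MHC class I genes 2 and 1 of 16 and mucins 1 and 0 of 17.

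Markers of cell types were used to check the label. Of 8 epithelial markers, 2 were marked in NC and 4 in KMT2D-KD. KRT8 had 2.98-fold and 6.03-fold, KRT18 had 5.97-fold and 7.2-fold, and KRT7 and EPCAM were KMT2D-KD only. Fibroblast markers numbered 1 and 1 of 7 (DCN in NC, LUM in KMT2D-KD), immune markers 0 and 1 of 7 (CD68) and endothelial markers 0 and 0 of 4. The marker lists are short, and H3K4me1 at a promoter does not measure expression.

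The KMT2D and EBF2 lists met few promoters of any kind. The 4 lists held 238 to 318 intervals each and reached 2 to 5 of the 20033 windows, and in each list 1 of these belonged to a gene with promoter H3K4me1. This gene was COL6A1, which encodes a chain of type VI collagen. Its KMT2D-KD H3K4me1 interval of 8.21-fold on 31 fragments, at chr21:45980739-45981006, was 268 bases wide, and in NC the closest H3K4me1 interval lay 3248 bases away. At the same place the KMT2D list had 35.6-fold in NC and 51.6-fold in KMT2D-KD, and the EBF2 list 41.3-fold and 57.8-fold. Enrichment at this place was thus found in 5 of 6 libraries, for KMT2D and EBF2 in both conditions and for H3K4me1 in KMT2D-KD only. Whether it reflects binding of these proteins was not tested.

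Promoter H3K4me1 was unevenly spread over the chromosomes. Among chromosomes 1 to 22 and X, the share of marked genes in NC ran from 10.5% on chromosome 1 to 1.13% on chromosome 18 and 1.16% on chromosome X. More genes were marked in KMT2D-KD on each of chromosomes 1 to 22 and on X. The ratio was lowest on chromosome 14 (1.36) and highest on chromosome 18 (4.67), where 3 and 14 genes were marked.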

How the data were processed

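KMT2D, EBF2 and H3K4me1 were profiled by ChIP-seq in NC and KMT2D-KD SW1990 cells, with 1 library each and 1 input. Per the study's methods, the authors aligned reads with BWA after discarding those of low quality, with adapters or with undetermined bases. The submitters' processing notes also name hg38, MACS2 and HOMER, and versions and settings are not given in the sources used here. The deposited lists give for each interval a fold enrichment over input, which is a ratio, with −log10 p and −log10 q values that are the authors' own. All list columns belong to a sample (0 were left unmapped).

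Intervals were joined to the 5′ ends, with 1000 bases on each side, of 20033 protein-coding gene records (GENCODE 44, chromosomes 1 to 22, X and Y). GC and CpG content were read from hg38. Side and distance follow the strand of the gene. A gene's best interval is the one with the highest −log10 q. Shares have exact binomial (Clopper-Pearson) 95% intervals, ratios an interval derived from it, and medians an exact rank interval. Reads without molecular identifiers are not independent molecules, so these cover counting error only. No test was made, since each condition had 1 library. Fragments were recovered by solving the fold enrichment and p-value of an interval for a count and a background, as MACS2 defines them. Genes named were the 10 places with the highest −log10 q in each class (for both lists, the lower of the values), the 5 highest and 5 lowest ratios of fold enrichment, up to 4 members of each of the gene lists by −log10 q, and KMT2D. Sequences were from the 2 highest places per class without exon overlap. The members, the lists and these rules were chosen with earlier results of these data known. The scripts were tested on simulated data. Python with numpy 2.4.6, pandas 2.3.3, scipy 1.17.1, pysam 0.24.0 and matplotlib 3.10.9 was used. A few named genes and lists are not reported here.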

Additional observations from a re-analysis of the deposited data

How the results depend on the processing

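Of 45 alternative values of the 9 principal results, 20 stayed within the counting interval of the reported value, 24 moved outside it and 1 changed sign. With equal numbers of intervals only the KMT2D-KD list was cut. The NC shares of covered 5′ ends and of downstream summits could therefore not change in that setting, and they are counted among the 20. The causes were not tested beyond what the settings themselves change. When a −log10 q of 5 or more was required, the log2 ratio of marked genes was 1.27 over all windows and 1.64 in the GC-richest quintile, the median GC content of NC only genes was 52.8%, and the 5′ end was inside an interval at 15% of marked genes in NC and 12.9% in KMT2D-KD. With equal numbers of intervals the log2 ratio was 0.38 over all windows, 0.61 in the GC-richest quintile and -0.071 (-0.32 to 0.18) in the GC-poorest quintile, against 0.46 with the full lists. With the canonical transcript's 5′ end, the median GC content of KMT2D-KD only genes was 56.3%, the 5′ end was covered at 4.46% (NC) and 4.96% (KMT2D-KD) of genes, and the summit was downstream in 43.5% and 42.7% of pairs. With the summit inside the window, the median GC content of KMT2D-KD only genes was 54.7%, the 5′ end was covered at 12.6% and 11.3% of genes, and the summit was downstream in 35.5% and 33.8% of pairs. With a window of 500 bases either side, the log2 ratio in the GC-richest quintile was 1.67, the median GC content was 51.5% in NC only and 53.5% in KMT2D-KD only genes, the 5′ end was covered at 23.5% and 19% of genes, and the summit was downstream in 34.7% and 30.9% of pairs. The genes with a covered 5′ end are the same 120 (NC) and 191 (KMT2D-KD) in either window. That share rose only because fewer genes, 510 and 1004, were marked in the narrower one. The classes also changed in size. NC only, KMT2D-KD only and both held 112, 533 and 188 genes at the stricter threshold and 558, 944 and 731 with equal numbers of intervals.

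No paired analysis was possible because no condition had a replicate and the results come from no test. Without replicates, a difference between the libraries and a difference between the conditions cannot be told apart. Many member intervals rested on 7 to 10 fragments at the summit, and the lists do not show how close a gene was to the threshold of the list that lacks it. The lists hold no value for genes without an interval, so absence from a list is not absence of the mark. The gene list counts under the same alternatives and the comparison of overlapping best intervals were added after the data were seen.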

Other observations

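Gene families outside the lists were grouped by the letters that open their symbols, for groups of 30 or more genes, after the data were seen. They are read beside the 6.43% of all genes marked in NC and the 11.9% in KMT2D-KD, and were picked for high, low or unlike counts, so they are a description. In KMT2D-KD the highest shares of marked genes were found for symbols beginning with SH (10 of 38, 26.3%), TAF (8 of 37, 21.6%) and ZBTB (9 of 42, 21.4%), and in NC these groups had 6, 3 and 3. VPS genes, which serve vesicle sorting, had 0 of 35 marked in NC and 7 in KMT2D-KD, and CDC genes, a mixed group named for cell division cycle mutants, 0 of 33 and 5. TMEM genes, which share transmembrane segments, had 14 and 40 of 238. The opposite order was seen for TBC genes, mostly GTPase-activating proteins of RAB GTPases, with 2 of 43 in NC and 0 in KMT2D-KD, and for GPR receptors, with 3 and 2 of 78. Beta-defensin genes (DEFB) had 0 of 40 in either list. No comparison among these groups was made.

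Outside the H3K4me1 lists, GOLM2 was the other gene with an interval of the 4 KMT2D and EBF2 lists within 1000 bases of its 5′ end in each list. Its fold enrichment for KMT2D was 46.4 in NC and 67.4 in KMT2D-KD, and for EBF2 62.1 and 64.2, and it had no promoter H3K4me1 interval in either condition.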
